A study of Homo sapiens with 6 samples.

Results

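CD44, NT5E, ENG, THY1, ALCAM, MCAM, NGFR and PROM1 encode surface proteins used to recognise mesenchymal stromal cells and neural crest cells. These 8 genes were taken by name from an RNAseq table of 26364 gene symbols, and all 8 were found in it. Of the 8, 7 had a mean level of at least 0.5 FPKM, read fragments scaled for transcript length and library size, and were tested among 15504 genes, while PROM1 was under that level and was only described.

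The libraries came from A673/TR/shEF cells, a derivative of the A673 Ewing sarcoma cell line that carries a tetracycline repressor and an shRNA against the EWSR1::FLI1 mRNA under doxycycline control. In 3 libraries the cells received no doxycycline (EWSR1::FLI1high), and in the other 3 they received 1 µg/mL doxycycline for 72 h (EWSR1::FLI1low). Both conditions carried the repressor and the shRNA construct, and the controls received no drug, so effects of doxycycline itself and of the knockdown cannot be told apart. The series description speaks of independent clones where the sample titles number experiments, and it could not be settled which is right, so p-values measure the spread between these samples, which may be technical.

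EWSR1::FLI1 is the fusion transcription factor that drives most Ewing sarcomas, a cancer of bone and soft tissue whose cell of origin is sought among mesenchymal stem cells and neural crest cells. It binds GGAA motifs through the ETS domain of FLI1, activates genes near GGAA repeats and represses many genes of the mesenchymal programme. Cultured stromal cells are conventionally identified by NT5E (CD73), ENG (CD105) and THY1 (CD90) on their surface together with the absence of blood cell markers. CD44, ALCAM (CD166) and MCAM (CD146) are further adhesion molecules of these cells, and NGFR (CD271) and PROM1 (CD133) also mark neural crest or progenitor cells.

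The genes lie on 6 chromosomes of GRCh37. CD44 (ENSG00000026508) is at chr11:35160429-35253949 on the plus strand, NT5E (ENSG00000135318) at chr6:86159302-86205509 on the plus strand and ALCAM (ENSG00000170017) at chr3:105085753-105295744 on the plus strand. MCAM (ENSG00000076706) at chr11:119179239-119192231 and THY1 (ENSG00000154096) at chr11:119286186-119295695 are neighbours on the minus strand, 94.0 kb apart. ENG (ENSG00000106991) is at chr9:130577292-130616937 and PROM1 (ENSG00000007062) at chr4:15964699-16086001, both on the minus strand, and NGFR (ENSG00000064300) is at chr17:47572655-47592370 on the plus strand.

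Promoters of 6 of the 8 genes, 9 promoters in all, were found in the RefSeq table of GRCh38.p14, and THY1 and NGFR were not matched. The 250 bases before the start site are shown for the 4 genes that passed the test, to show where the motif of the fusion protein lies in genes that moved together. They are CD44 (chr11:35138921-35139170, plus strand), NT5E (chr6:85449833-85450082, plus strand), ALCAM (chr3:105366659-105366908, plus strand) and MCAM (chr11:119317131-119317380, minus strand), all in GRCh38.p14. Each is written 5′ to 3′ in the gene's own direction, and capitals mark GGAA or its reverse complement TTCC.
CD44: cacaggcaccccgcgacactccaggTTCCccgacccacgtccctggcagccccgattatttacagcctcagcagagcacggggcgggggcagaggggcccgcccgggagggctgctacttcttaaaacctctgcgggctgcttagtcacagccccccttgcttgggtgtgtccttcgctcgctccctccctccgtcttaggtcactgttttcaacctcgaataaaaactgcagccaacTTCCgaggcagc
NT5E: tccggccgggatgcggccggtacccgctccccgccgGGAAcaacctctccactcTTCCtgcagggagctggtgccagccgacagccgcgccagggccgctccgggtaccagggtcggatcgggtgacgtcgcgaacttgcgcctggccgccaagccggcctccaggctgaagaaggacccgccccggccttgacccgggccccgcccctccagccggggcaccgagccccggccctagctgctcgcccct
ALCAM: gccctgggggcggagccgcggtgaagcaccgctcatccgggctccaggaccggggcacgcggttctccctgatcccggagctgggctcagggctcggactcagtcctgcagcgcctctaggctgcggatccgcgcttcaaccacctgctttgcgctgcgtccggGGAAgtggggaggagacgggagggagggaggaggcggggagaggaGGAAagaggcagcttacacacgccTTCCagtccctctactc
MCAM: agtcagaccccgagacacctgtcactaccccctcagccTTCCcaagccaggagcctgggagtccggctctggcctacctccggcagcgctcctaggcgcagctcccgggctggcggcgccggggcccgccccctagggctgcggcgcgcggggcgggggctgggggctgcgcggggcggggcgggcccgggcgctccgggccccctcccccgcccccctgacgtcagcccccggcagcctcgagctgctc
Over the window from 250 bases before to 50 bases after the start, GGAA was found on either strand 2 times in CD44, 2 times in NT5E, 3 times in ALCAM, 3 times in MCAM, 3 times in ENG and 2 to 4 times in the PROM1 promoters. Of 35116 RefSeq promoters of that length, 95.5% held at least 1 GGAA and the median was 3, so the counts of CD44, NT5E, ALCAM, MCAM and ENG were at or below that median. The tandem GGAAGGAA, which contains GGAA, was in none of the 9 promoters and in 3.67% of all promoters. The TEAD motif GGAATG, which also contains GGAA, was in none of the 9 and in 14.0% of all, and the AP-1 motif TGANTCA was in 1 of the 4 PROM1 promoters and in 7.71% of all.

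The libraries held between 6980361 and 16658933 reads on genes. FLI1, the 3′ partner of the fusion, was listed at 11.3, 12.7 and 14.2 FPKM in EWSR1::FLI1high and at 2.91, 4.29 and 3.68 FPKM in EWSR1::FLI1low, a fall of the log2 level by 1.57 (SE 0.18, adjusted p = 0.000676, limma). EWSR1::FLI1low replicate 1 stood apart from the others: its median over all symbols was 1.1 FPKM against 0.667 to 0.847 in the other 5 libraries, and its total was 255956 FPKM against 334614 to 366060. The change of each tested surface marker is therefore also given without that library. Of 10 markers of blood and endothelial cells, whose absence belongs to the stromal definition, 7 were under 1 FPKM in every library, and the highest value of any was 2.77 FPKM. Their sum was 3.31 to 5.15 FPKM in EWSR1::FLI1high and 2.90 to 4.78 FPKM in EWSR1::FLI1low. Only 3 of the 10, CD34, CD79A and PECAM1, had a high enough mean to be tested, and 0 of these 3 passed limma in either direction (1 higher and 1 lower at an unadjusted p under 0.05, 1 higher and 0 lower with limma-voom), and the leukocyte marker PTPRC (CD45) averaged 0.408 ± 0.129 and 0.402 ± 0.230 FPKM (SD, n = 3).

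EWSR1::FLI1 knockdown was accompanied by higher transcript levels of 4 of the 7 genes tested: NT5E, CD44, ALCAM and MCAM. NT5E and CD44 were each more than 11 times higher on average, ALCAM and MCAM about 3 times. THY1, the most abundant of the 8 in EWSR1::FLI1high cells, had overlapping levels in both conditions, and ENG and NGFR did not pass the adjusted p limit of 0.01. log2(FPKM + 1) was tested with limma, and p-values were adjusted over all genes by the Benjamini-Hochberg method. This called 4.51% of all genes higher and 3.37% lower in EWSR1::FLI1low. Of the 7 genes, 0 were called lower by limma (1 lower at an unadjusted p under 0.05 and 1 lower with limma-voom, NGFR in both). The 3 libraries of a condition did not overlap those of the other for 6 of the 7 genes, against 41.1% of all genes tested, and an exact permutation test of 3 against 3 values cannot give a p below 0.1. The median log2 change was 1.43 over the 7 genes and -0.05 over all genes. Without EWSR1::FLI1low replicate 1 the count called higher was 4 as well. It was 1 without EWSR1::FLI1high replicate 2 or EWSR1::FLI1low replicate 3 and 2 without EWSR1::FLI1high replicate 1. The count over all genes moved too, from 700 to 1452, 287, 419 and 374 without these libraries in the same order.

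**Figure D1:**
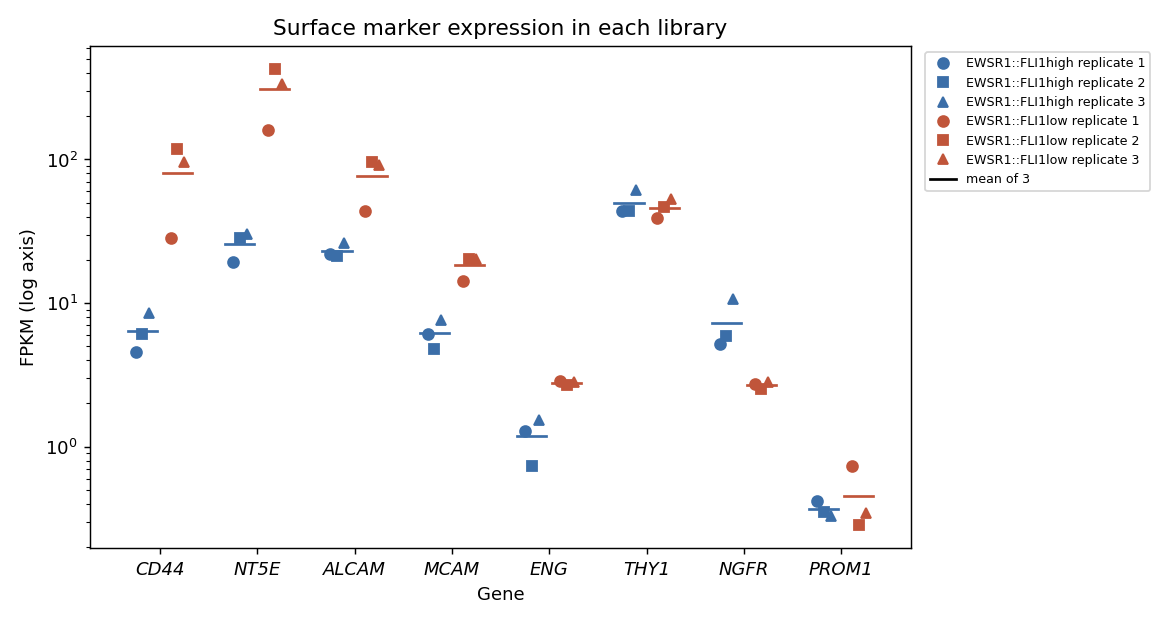
FPKM of the 8 surface marker genes (log axis) in each of the 6 libraries, blue for EWSR1::FLI1high and red for EWSR1::FLI1low, with the marker shape giving the replicate number and the horizontal line the mean of 3. The red points of CD44, NT5E, ALCAM, MCAM and ENG lie above the blue ones, those of NGFR lie below, and those of THY1 and PROM1 overlap, with EWSR1::FLI1low replicate 1 the lowest red point for CD44, NT5E, ALCAM, MCAM and THY1.

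NT5E encodes the ecto-5′-nucleotidase that converts extracellular AMP to adenosine. Its level was 19.2, 28.3 and 30.4 FPKM in EWSR1::FLI1high replicates 1, 2 and 3 and 160, 428 and 335 FPKM in EWSR1::FLI1low replicates 1, 2 and 3. Every EWSR1::FLI1low library was thus far above every EWSR1::FLI1high library, with replicate 1 the lowest of the treated libraries. The mean went from 26.0 ± 5.97 to 308 ± 136 FPKM (SD, n = 3 each), 11.9 times higher. The log2 change was 3.43 (SE 0.35, 95% interval 2.64 to 4.22, adjusted p = 0.000383 by limma), and 42 of the genes tested had a larger increase. Measured against all genes tested, the mean level of NT5E was above 78.3% of them in EWSR1::FLI1high and above 99.5% in EWSR1::FLI1low. NT5E passed under every alternative and with every library left out, and without EWSR1::FLI1low replicate 1 its change was 3.84.

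ENG encodes endoglin, a co-receptor for TGF-β family ligands that is typical of endothelium and stromal cells. It was measured at 1.28, 0.732 and 1.54 FPKM in EWSR1::FLI1high and 2.86, 2.67 and 2.83 FPKM in EWSR1::FLI1low, from 46, 20 and 41 reads and 87, 75 and 151 reads. The conditions did not overlap and the treated libraries lay close together, but the test did not pass. The mean was 1.19 ± 0.414 FPKM in EWSR1::FLI1high and 2.78 ± 0.101 FPKM in EWSR1::FLI1low (SD, n = 3 each), 2.35 times higher. The log2 difference was 0.81 (SE 0.18, 95% interval 0.40 to 1.22, adjusted p = 0.0162 by limma). It was 0.80 (adjusted p = 0.0215) without EWSR1::FLI1low replicate 1. ENG was the second lowest of the 8 genes in EWSR1::FLI1high, above 24.4% of all genes tested.

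THY1 encodes a GPI-anchored glycoprotein of fibroblasts, neurons and stromal cells that binds integrins. Its level was 43.6, 43.8 and 61.6 FPKM in EWSR1::FLI1high and 39.0, 46.5 and 52.8 FPKM in EWSR1::FLI1low. The ranges overlapped, and the means of 49.7 ± 10.3 and 46.1 ± 6.90 FPKM (SD, n = 3 each) differed by less than the SD of either condition. The log2 difference was -0.10 (SE 0.21, adjusted p = 0.791 by limma), with a 95% interval of -0.58 to 0.38. The sign of this difference turned without EWSR1::FLI1high replicate 3 (0.0643) and without EWSR1::FLI1low replicate 1 (0.0148). This interval lies below those of the 4 called genes, which begin at 0.93 or more. THY1 was also an abundant transcript throughout, above 89.0% of all genes tested in EWSR1::FLI1high and 89.6% in EWSR1::FLI1low. MCAM, its neighbour on chromosome 11, rose in the same libraries.

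The conventional stromal trio therefore did not move together in A673/TR/shEF cells. NT5E rose from an already high level, and THY1 was high in both conditions. ENG was low in both, with higher values in EWSR1::FLI1low that did not pass the test.

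CD44 encodes the main cell surface receptor for hyaluronan, a glycosaminoglycan of the extracellular matrix. The study picked this gene out from these same libraries, so its rise here is not independent evidence. Outside these libraries, the study reported higher CD44 in this cell line upon knockdown by RT-qPCR, western blot and immunostaining. CD44 was measured at 4.58, 6.09 and 8.51 FPKM in EWSR1::FLI1high (321, 324 and 440 reads) and at 28.6, 117 and 96.6 FPKM in EWSR1::FLI1low (1699, 6426 and 10052 reads). All treated libraries were above all untreated ones, but EWSR1::FLI1low replicate 1 reached only 0.267 of the mean of the other treated libraries. The mean went from 6.39 ± 1.98 to 80.8 ± 46.4 FPKM (SD, n = 3 each), 12.6 times higher, and the ratios of equally numbered libraries were 6.25, 19.3 and 11.4. The log2 change was 3.28 (SE 0.47, 95% interval 2.2 to 4.35, adjusted p = 0.00207 by limma), and 54 genes had a larger increase. CD44 was thereby a mid-range transcript in EWSR1::FLI1high, above 50.4% of all genes tested, and was above 95.1% of them in EWSR1::FLI1low. Without EWSR1::FLI1low replicate 1 the change was 3.90 (adjusted p = 7.18e-05). It lost its call without EWSR1::FLI1high replicate 2 (3.26, adjusted p = 0.0144) and without EWSR1::FLI1low replicate 3 (3.04, adjusted p = 0.0133). The values are summed over the isoforms of the gene and do not separate them, and in bulk RNA a change in the share of cells that express a gene and a change in its RNA per cell cannot be told apart.

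ALCAM encodes an immunoglobulin superfamily protein that binds itself on neighbouring cells and CD6 on lymphocytes. It was measured at 21.9, 21.4 and 26.1 FPKM in EWSR1::FLI1high and 43.6, 96.7 and 91.4 FPKM in EWSR1::FLI1low. Replicate 1 was again the lowest treated library, at 0.463 of the mean of the others, and was still above every untreated library. The mean went from 23.1 ± 2.61 to 77.2 ± 29.3 FPKM (SD, n = 3 each), 3.34 times higher, with a log2 change of 1.62 (SE 0.30, 95% interval 0.94 to 2.30, adjusted p = 0.00691 by limma). Across all genes tested, 421 had a larger increase. The call was lost in 5 of the 6 fits with a library left out. It was kept without EWSR1::FLI1low replicate 1 (1.98, adjusted p = 0.00011). The 5 were those without EWSR1::FLI1high replicate 1 (1.58, adjusted p = 0.0265), replicate 2 (1.57, adjusted p = 0.0404) or replicate 3 (1.71, adjusted p = 0.0269), and without EWSR1::FLI1low replicate 2 (1.42, adjusted p = 0.0196) or replicate 3 (1.46, adjusted p = 0.0253).

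MCAM encodes an adhesion protein of endothelial cells, pericytes and melanoma cells that binds laminin. Its level was 6.12, 4.78 and 7.63 FPKM in EWSR1::FLI1high and 14.3, 20.2 and 20.3 FPKM in EWSR1::FLI1low. The gap between the conditions was wider than the range within either. The mean went from 6.18 ± 1.43 to 18.3 ± 3.43 FPKM (SD, n = 3 each), 2.96 times higher, with a log2 change of 1.43 (SE 0.22, 95% interval 0.93 to 1.92, adjusted p = 0.00275 by limma). Without EWSR1::FLI1low replicate 1 the change was 1.59 (adjusted p = 0.00106). The call was lost without EWSR1::FLI1high replicate 1 (1.43, adjusted p = 0.0138), EWSR1::FLI1high replicate 2 (1.28, adjusted p = 0.0214) and EWSR1::FLI1low replicate 3 (1.35, adjusted p = 0.0118). MCAM shares 509 exon bases with CBL on the opposite strand, where CBL was at 5.57 to 8.42 FPKM, and whether the counting used strand is not given in the sources used here.

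NGFR encodes the p75 neurotrophin receptor, a marker of neural crest stem cells and of freshly isolated bone marrow stromal cells. It was the only gene of the 8 whose libraries were all lower upon knockdown, at 5.15, 5.94 and 10.6 FPKM in EWSR1::FLI1high (185, 162 and 282 reads) and 2.73, 2.53 and 2.81 FPKM in EWSR1::FLI1low (83, 71 and 150 reads). The conditions did not overlap, but EWSR1::FLI1high replicate 3 was well above the other 2 untreated libraries. The mean was 7.25 ± 2.97 FPKM in EWSR1::FLI1high and 2.69 ± 0.145 FPKM in EWSR1::FLI1low (SD, n = 3 each), 2.69 times higher in EWSR1::FLI1high. The log2 difference of -1.10 (SE 0.24, 95% interval -1.65 to -0.56) had an adjusted p of 0.0139 by limma and was not called. Without EWSR1::FLI1low replicate 1 it was -1.11 (adjusted p = 0.0209). It passed with limma-voom on the recovered reads (-1.34, adjusted p = 0.00614), with quantile normalization (-1.16, adjusted p = 0.00771) and with limma's sample quality weights (-1.01, adjusted p = 0.00319). With replicate number as a block in the limma fit it passed as well (-1.10, adjusted p = 0.00693).

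PROM1 encodes prominin-1, a pentaspan protein of membrane protrusions used as a progenitor cell marker. Its level was low, at 0.420, 0.350 and 0.330 FPKM in EWSR1::FLI1high and 0.731, 0.283 and 0.343 FPKM in EWSR1::FLI1low, from 19, 12 and 11 reads and 28, 10 and 23 reads. A level of 3 reads, taken as the floor, was worth 0.0447 to 0.0899 FPKM for this gene. The ranges overlapped (exact permutation test, two-sided p = 0.9), and a difference was not detectable at this depth. PROM1 shares 166 exon bases on the same strand with FGFBP2, a secreted growth factor binding protein, which was at 0.651, 0.321 and 0.551 FPKM in EWSR1::FLI1high and 47.0, 3.54 and 3.07 FPKM in EWSR1::FLI1low. Both genes were highest in EWSR1::FLI1low replicate 1, and whether reads of FGFBP2 were counted for PROM1 was not tested.

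**Figure D2:**
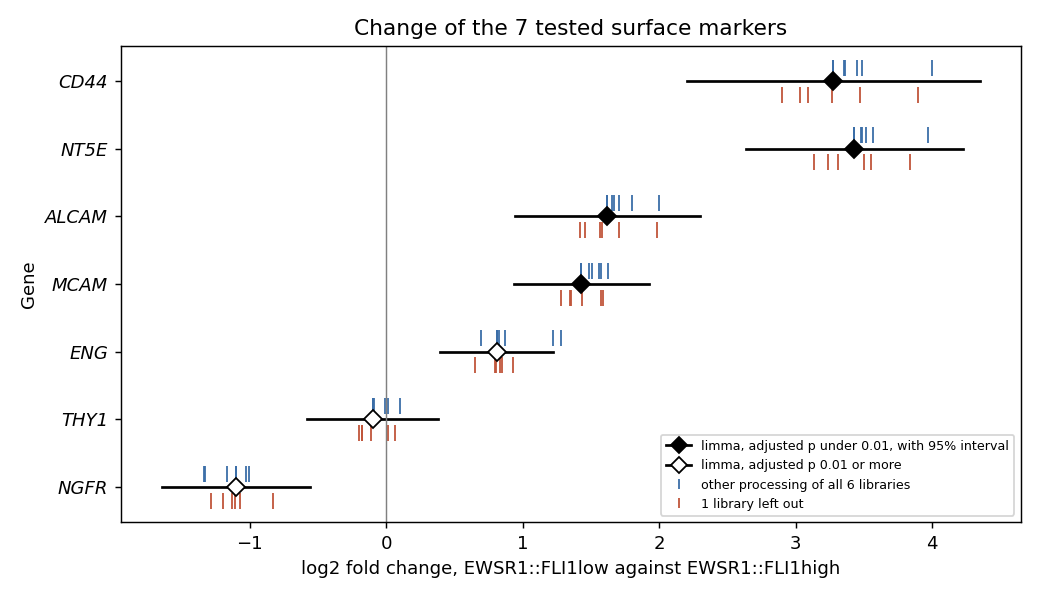
log2 fold change of the 7 tested genes, EWSR1::FLI1low against EWSR1::FLI1high, as diamonds with the 95% interval from limma, filled where the adjusted p was under 0.01. Blue ticks are other ways of processing all 6 libraries and red ticks are fits with 1 library left out, and only the ticks of THY1 lie on both sides of 0.

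The make-up of the surface marker transcripts differed between the conditions. The summed level of the 8 genes was 102, 111 and 147 FPKM in EWSR1::FLI1high and 292, 714 and 602 FPKM in EWSR1::FLI1low. In EWSR1::FLI1high, THY1 made up on average 41.3% of the sum, NT5E 21.6%, ALCAM 19.5% and NGFR 5.88%. In EWSR1::FLI1low, NT5E made up 56.8%, ALCAM 14.5%, CD44 14.1%, THY1 9.54% and NGFR 0.585%. The THY1 share is taken of a larger sum there, and its own level overlapped between the conditions.

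Per transcript length, THY1 ranked first in EWSR1::FLI1high, and all its libraries were above those of NT5E. NT5E and ALCAM followed with overlapping libraries, then NGFR, CD44 and MCAM, which also overlapped, then ENG and last PROM1. In EWSR1::FLI1low the order was NT5E, then CD44, ALCAM and THY1 with overlaps between neighbours, then MCAM, then ENG and NGFR with overlapping libraries, and PROM1 last again. By rank, CD44 was number 5 of the 8 genes in EWSR1::FLI1high and number 2 in EWSR1::FLI1low, and NGFR was number 4 and number 7.

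**Figure D3:**
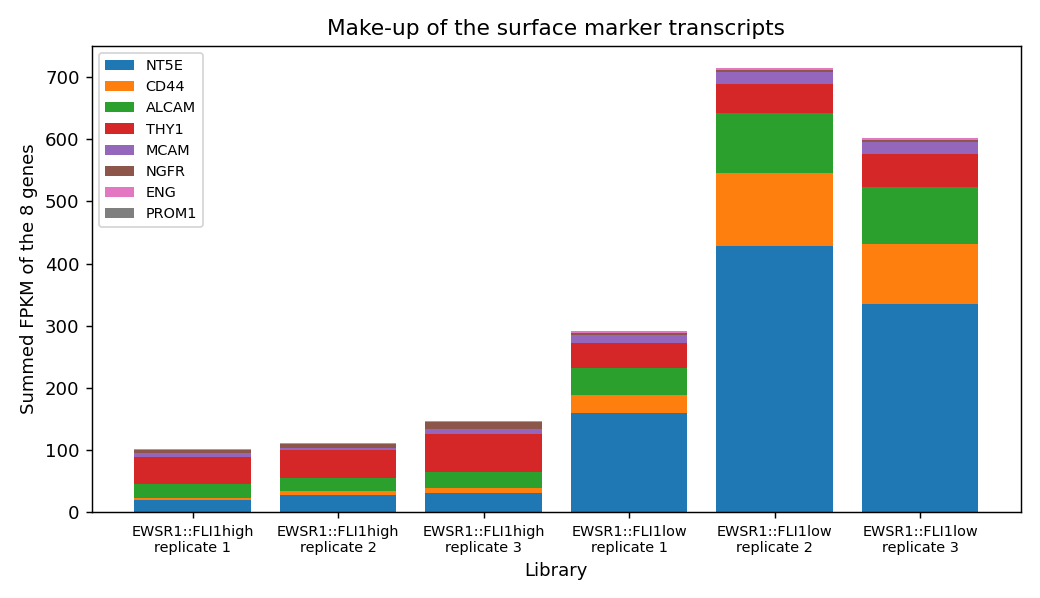
Summed FPKM of the 8 genes in each library, with 1 colour per gene. The bars reach 102 to 147 in EWSR1::FLI1high and 292 to 714 in EWSR1::FLI1low, where NT5E and CD44 fill most of the difference and the THY1 segment keeps about its height.

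The spread between treated libraries differed among the genes. On log2(FPKM + 1), CD44 had an SD of 0.385 in EWSR1::FLI1high and 1.08 in EWSR1::FLI1low, NT5E 0.343 and 0.734, and ALCAM 0.152 and 0.632. These 3 genes had the larger SD after knockdown with EWSR1::FLI1low replicate 1 included, which was the low library in each of them. There, CD44 was at 28.6 FPKM against 117 and 96.6 in the other treated libraries. NT5E was at 160 against 428 and 335, and ALCAM at 43.6 against 96.7 and 91.4. SDs without that library were not computed. MCAM (0.289 and 0.272) and THY1 (0.281 and 0.215) had nearly equal spreads, while ENG (0.286 and 0.0387) and NGFR (0.489 and 0.0572) were less variable after knockdown. The larger spread was not particular to these genes, since 79.0% of all genes tested had the larger SD in EWSR1::FLI1low, against 3 of the 7.

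EWSR1::FLI1low replicate 1 was the lowest treated library for all 4 called genes, with a median of 0.442 of the mean of the other treated libraries. Over all genes called higher it was the lowest in 59.6%, with a median of 0.794, and over all genes tested in 56.4%, with a median of 0.810. By contrast it was the highest treated library for ENG, and for NGFR it lay between the others. Among the untreated libraries, replicate 3 was the highest for all 7 tested genes, against 52.8% of all genes tested. The part of library quality, which sample weights put lowest for EWSR1::FLI1low replicate 1 (0.172 against 0.463 to 2.79), in this spread was not tested.

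**Figure D4:**
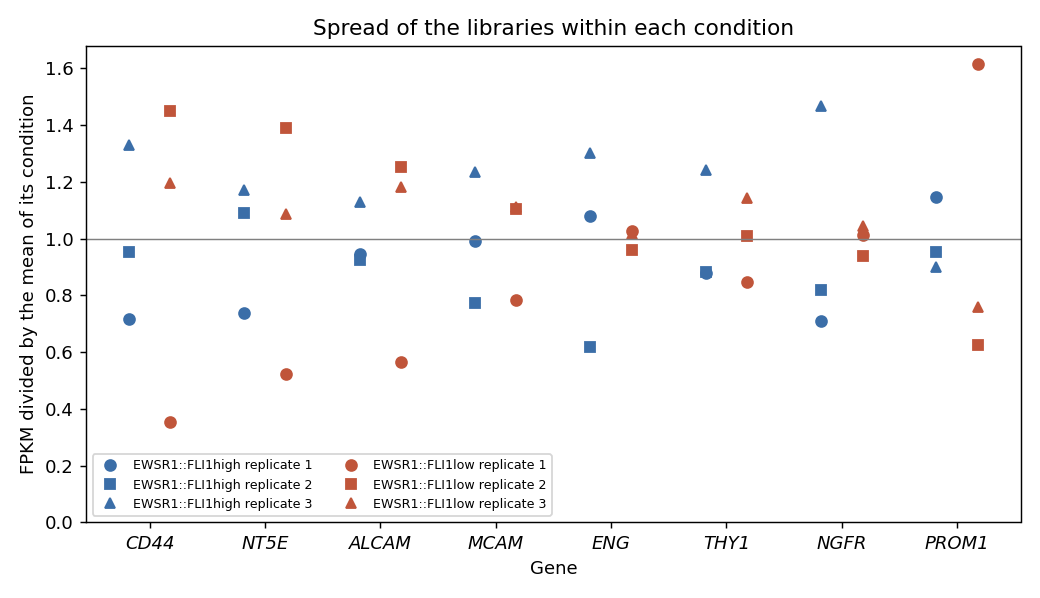
FPKM of each library divided by the mean of its own condition for the 8 genes, blue for EWSR1::FLI1high and red for EWSR1::FLI1low, with 1.0 drawn as a line. The red circles (EWSR1::FLI1low replicate 1) lie far below the line for CD44, NT5E and ALCAM and far above it for PROM1, and the blue triangles (EWSR1::FLI1high replicate 3) lie above it for all genes but PROM1.

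Among 1099 genes with a log2 range of at least 2, those outside the 8 surface markers whose levels over the 6 libraries were most like CD44 by Pearson correlation were S100A3 (r = 0.999), CDH13 (0.997), ARHGAP10 (0.996), S100A2 (0.996) and ANTXR2 (0.996). These values describe 6 points in 2 clusters that share treatment and library, and carry no test. CDH13, which encodes the GPI-anchored T-cadherin, was at 0.616, 1.1 and 1.52 FPKM in EWSR1::FLI1high and 7.76, 52.8 and 45.7 FPKM in EWSR1::FLI1low, with the same low replicate 1 as CD44. S100A3, a calcium-binding protein gene, was at 1.42, 1.87 and 2.62 FPKM and 8.99, 37.3 and 26.2 FPKM. Of the surface markers, ALCAM (0.996), which ranked number 5 among the 1099 and ahead of ANTXR2, and NT5E (0.991) were nearest to CD44, followed by MCAM (0.971) and ENG (0.860), while THY1 (0.05) and NGFR (-0.78) were not like it.

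Other surface proteins of stromal cells were set beside the 8 genes. Here and in the lists that follow, levels are mean FPKM ± SD (n = 3) in EWSR1::FLI1high and EWSR1::FLI1low, and the number before an adjusted p in parentheses is the log2 change from limma. Of 16 listed, 13 were tested, 8 were called higher and 0 lower (10 higher and 0 lower at an unadjusted p under 0.05, 8 and 0 with limma-voom), with a median log2 change of 1.31. The largest was PDGFRA, a platelet-derived growth factor receptor, from 0.831 ± 0.208 to 16.6 ± 7.03 FPKM (log2 change 3.18, adjusted p = 0.000242). MME, the peptidase CD10, went from 1.40 ± 0.483 to 16.8 ± 2.90 FPKM (2.90, adjusted p = 7.95e-05), and VCAM1, a leukocyte adhesion receptor, from 8.83 ± 1.45 to 78.4 ± 44 FPKM (2.89, adjusted p = 0.000702). FAP, fibroblast activation protein, went from 7.42 ± 1.88 to 26.9 ± 11.5 FPKM (1.66, adjusted p = 0.00901), and of 6 fits with 1 library left out it was called only without EWSR1::FLI1low replicate 1. The most abundant of those that did not pass were ITGB1 (179 ± 16.1 and 336 ± 126 FPKM, adjusted p = 0.0568) and CD59 (22.7 ± 0.853 and 107 ± 57.9 FPKM, adjusted p = 0.0141), and both were called without EWSR1::FLI1low replicate 1 (adjusted p = 0.00236 and 2.66e-05). The count of 8 was 10 without that library. It was 4 without EWSR1::FLI1high replicate 1, 2 or 3 or EWSR1::FLI1low replicate 3, and 5 without EWSR1::FLI1low replicate 2.

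Genes around CD44 comprised hyaluronan enzymes, other hyaluronan receptors and binding proteins, CD44 ligands, cytoskeletal linkers and sheddases. Of 22 listed, 16 were tested, 4 were called higher and 0 lower (6 higher and 3 lower at an unadjusted p under 0.05, 4 and 0 with limma-voom), with a median log2 change of 0.22. SPP1, which encodes the CD44 ligand osteopontin, was at 0.210, 0.484 and 0.783 FPKM in EWSR1::FLI1high and 8.06, 114 and 103 FPKM in EWSR1::FLI1low. Its log2 change of 5.02 (SE 0.82, adjusted p = 0.00394) was larger than that of CD44 and had the same low replicate 1. VCAN, a hyaluronan-binding proteoglycan, was instead highest in that library, at 26.2 FPKM against 8.31 and 8.55 in the other treated libraries, with a log2 change of 2.92 (adjusted p = 0.00112). MMP14, a membrane protease that sheds CD44, went from 11.1 ± 0.556 to 52.3 ± 16.3 FPKM (2.09, adjusted p = 0.000667), and CEMIP, which takes part in hyaluronan breakdown, from 0.157 ± 0.0503 to 3.13 ± 1.71 FPKM (1.76, adjusted p = 0.00242). The linkers RDX (166 ± 10.6 and 139 ± 15.3 FPKM, adjusted p = 0.299) and MSN (201 ± 20.7 and 213 ± 63.5 FPKM, adjusted p = 0.939), which tie CD44 to actin, were abundant and did not pass. The shares over all genes tested were 4.51% higher and 3.37% lower. The count of 4 was 5 without EWSR1::FLI1low replicate 1 and 2 without EWSR1::FLI1high replicate 2 or 3. SPP1 lost its call without EWSR1::FLI1high replicate 1 (4.87), replicate 2 (5.02) or replicate 3 (5.15) and without EWSR1::FLI1low replicate 3 (4.45), with adjusted p-values of 0.0109 to 0.0223. CEMIP lost its call without EWSR1::FLI1high replicate 2 (1.79, adjusted p = 0.0142) or replicate 3 (1.73, adjusted p = 0.0146).

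Of 13 genes of the adenosine pathway around NT5E, 9 were tested, 1 was called higher and 1 lower, with a median log2 change of 0.07. At an unadjusted p under 0.05 there were 2 higher and 4 lower, and with limma-voom 1 and 2. Over all genes the shares were 4.51% higher and 3.37% lower, so a call of 1 of 9 genes in each direction is little above that background. ADORA1, an adenosine receptor, went from 0.148 ± 0.0944 to 1.87 ± 0.687 FPKM (1.30, adjusted p = 0.00312). Its EWSR1::FLI1high values came from only 7, 4 and 1 reads, near the floor of 3 reads (0.0660 to 0.133 FPKM). ENPP1, which makes the AMP that NT5E uses, fell from 12.7 ± 0.355 to 5.28 ± 1.00 FPKM (-1.13, adjusted p = 0.00293). ADK, which phosphorylates adenosine (25.7 ± 1.6 and 36.4 ± 14.3 FPKM, adjusted p = 0.387), and the transporter SLC29A1 (12.9 ± 2.04 and 5.47 ± 1.78 FPKM, adjusted p = 0.0130) did not pass. SLC29A1 was called with median-ratio scaling (adjusted p = 0.00808), quantile normalization (0.00712), sample weights (0.00203) and limma-voom (0.0055), and without EWSR1::FLI1low replicate 1 (-0.88, adjusted p = 0.00795). Without EWSR1::FLI1low replicate 1 the counts were 3 higher and 2 lower. ADORA1 lost its call without EWSR1::FLI1high replicate 1 (1.35), 2 (1.32) or 3 (1.23), and ENPP1 without the same libraries (-1.12, -1.15 and -1.12) and without EWSR1::FLI1low replicate 2 (-1.08).

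Of 14 receptors, ligands and scaffolds that act with ENG, 12 were tested, 4 were called higher and 0 lower (5 higher and 1 lower at an unadjusted p under 0.05, 4 and 1 with limma-voom), with a median log2 change of 0.66. The ligand TGFB2 went from 0.572 ± 0.0520 to 20.4 ± 4.42 FPKM (3.75, adjusted p = 1.74e-05), and the type II receptor TGFBR2 from 14.0 ± 1.49 to 45.9 ± 5.54 FPKM (1.64, adjusted p = 0.000567). TGFBR1 went from 8.80 ± 0.513 to 20.5 ± 5.06 FPKM (1.11, adjusted p = 0.00803), and BMPR2 from 7.24 ± 1.12 to 14.9 ± 2.26 FPKM (0.95, adjusted p = 0.00935). These last 2 were called in 1 of 6 fits with a library left out, that without EWSR1::FLI1low replicate 1, which called 5 genes of the list. The fits without any of the other libraries called 2. Among all genes tested, 4.51% were called higher and 3.37% lower in the main fit. TGFB1 (9.35 ± 3.21 and 10.4 ± 3.58 FPKM, adjusted p = 0.778) and the endoglin-binding scaffold GIPC1 (8.93 ± 1.34 and 12.3 ± 3.54 FPKM, adjusted p = 0.285) did not pass.

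A list of 12 genes held mainly ligand and integrin partners of THY1, ALCAM and MCAM, and a relative of PROM1. Of the 12, 9 were tested, 3 were called higher and 0 lower, with a median log2 change of 0.89. At an unadjusted p under 0.05 there were 5 higher and 0 lower, and with limma-voom 5 and 0. The shares called over all genes were 4.51% higher and 3.37% lower. LAMA4, a laminin chain bound by MCAM, went from 0.50 ± 0.153 to 10.8 ± 3.30 FPKM (2.94, adjusted p = 0.00012). The integrin subunit ITGAV went from 28.4 ± 1.37 to 124 ± 38.7 FPKM (2.04, adjusted p = 0.000719), and galectin-3, LGALS3, from 4.34 ± 0.366 to 15.1 ± 1.32 FPKM (1.59, adjusted p = 0.000384). ITGB5 (21.2 ± 0.634 and 39.7 ± 5.75 FPKM, adjusted p = 0.0120) and LGALS1 (115 ± 10.5 and 154 ± 24.7 FPKM, adjusted p = 0.153) did not pass. The count was 6 without EWSR1::FLI1low replicate 1, in which ITGB5 was called (0.97, adjusted p = 0.00151), and 3 without any of the others.

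Of 13 neurotrophins, co-receptors and adaptors around NGFR, 8 were tested, 2 were called higher and 1 lower, with a median log2 change of 0.07. At an unadjusted p under 0.05, 4 were higher and 2 lower by limma. The shares called over all genes were 4.51% higher and 3.37% lower. The neurotrophin BDNF went from 1.08 ± 0.0156 to 4.75 ± 1.14 FPKM (1.45, adjusted p = 0.00112). BDNF thus rose while its receptor NGFR was at lower values without passing the test. LINGO1, a co-receptor of NGFR, fell from 7.80 ± 2.0 to 1.64 ± 0.707 FPKM (-1.74, adjusted p = 0.00157). The adaptors NGFRAP1 (150 ± 7.75 and 196 ± 11.4 FPKM, adjusted p = 0.113) and MAGED1 (66.3 ± 7.17 and 90.8 ± 13.0 FPKM, adjusted p = 0.128) did not pass. The count called higher was 1 without EWSR1::FLI1high replicate 2 or 3, and 2 genes were called lower without EWSR1::FLI1low replicate 1.

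Of 14 genes of the neural crest, which NGFR marks, 11 were tested, 3 were called higher and 0 lower (4 higher and 3 lower at an unadjusted p under 0.05, 4 and 1 with limma-voom), with a median log2 change of 0.35. The transcription factors SNAI2 (4.39 ± 0.552 to 26.8 ± 9.39 FPKM, log2 change 2.32, adjusted p = 0.000475) and SOX9 (4.03 ± 1.17 to 18.7 ± 2.75 FPKM, 1.98, adjusted p = 0.000532) rose, as did NES, the intermediate filament nestin (12.4 ± 2.98 to 42.9 ± 13.9 FPKM, 1.70, adjusted p = 0.00336). These 3 genes are also expressed in mesenchymal cells. SOX10, the factor most specific to the neural crest, was at 0 to 0.236 FPKM in the 6 libraries, and TWIST1 (21.2 ± 2.21 and 19.2 ± 9.82 FPKM, adjusted p = 0.637) and PAX3 (11.2 ± 1.31 and 7.64 ± 0.925 FPKM, adjusted p = 0.0809) did not pass. The count was 3 without EWSR1::FLI1low replicate 1 and 2 without EWSR1::FLI1high replicate 1, 2 or 3 or EWSR1::FLI1low replicate 3. NES lost its call without those 4 libraries, with log2 changes of 1.5 to 1.83. Among all genes tested, 4.51% were called higher and 3.37% lower in the main fit.

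**Figure D5:**
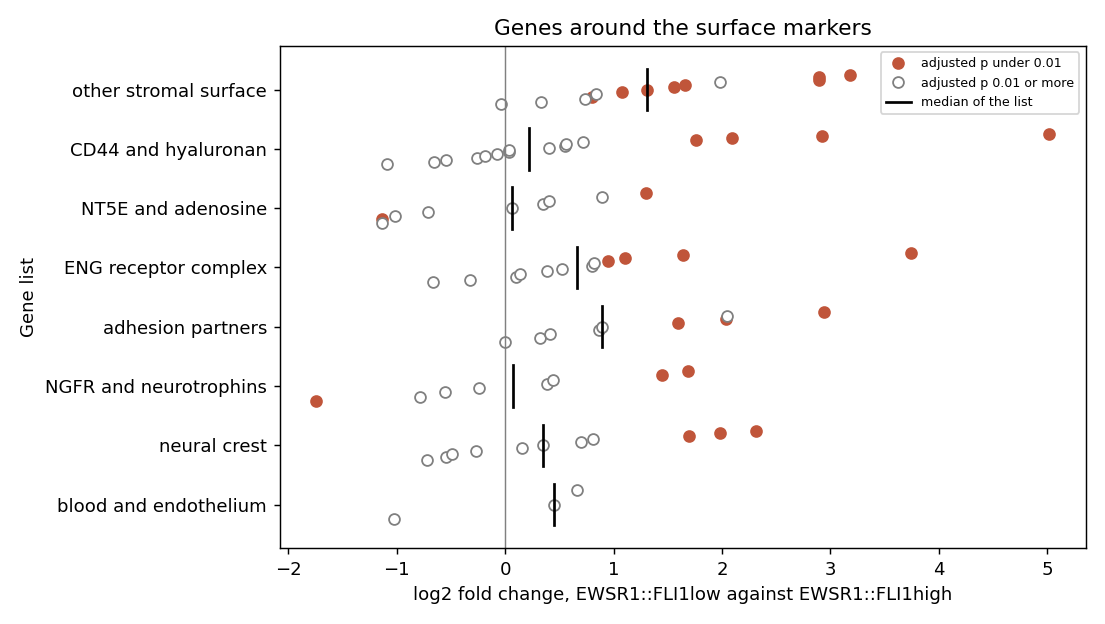
log2 fold change, EWSR1::FLI1low against EWSR1::FLI1high, of the tested genes in the lists around the surface markers, filled where the adjusted p was under 0.01, with the median of each list as a bar. The medians run from 0.07 for the adenosine and neurotrophin lists to 1.31 for the other stromal surface proteins.

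The check of the knockdown included other genes of the Ewing sarcoma programme. NR0B1, a target that the fusion activates through GGAA repeats, was at 22.2, 33.8 and 32.9 FPKM in EWSR1::FLI1high and 1.84, 5.0 and 6.84 FPKM in EWSR1::FLI1low (log2 change -2.56, adjusted p = 0.00172). The list checked held 7 genes, among them the genes of both fusion partners. Of these, 5 were called lower and 0 higher (6 lower and 0 higher at an unadjusted p under 0.05, 5 and 0 with limma-voom). The shares over all genes tested were 3.37% lower and 4.51% higher. FLI1 itself was among the 5 and gave the median log2 change of -1.57. Without EWSR1::FLI1low replicate 1 the count of 5 was 6, and it was 2 without EWSR1::FLI1high replicate 2 and 3 without EWSR1::FLI1high replicate 3. NR0B1 lost its call without these 2 libraries (-2.45, adjusted p = 0.0133, and -2.47, adjusted p = 0.0117). NR0B1 was lowest in EWSR1::FLI1low replicate 1, the library in which CD44, NT5E, ALCAM and MCAM were also lowest among the treated ones.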

How the data were processed

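RNAseq was measured in 6 libraries, 3 per condition, assigned by the treatment labels. The labels name Trizol extraction, Ribo-zero rRNA depletion and the ScriptSeq v2 kit, and give no batch or date. The authors aligned paired-end reads to GRCh37 with STAR 2.5.0b and quantified them with Cufflinks 2.2.1 in the BaseSpace RNA-Seq Alignment workflow. The authors deposited FPKM per gene symbol and library, without pooling. A second deposited table holds the authors' DESeq2 1.6.3 comparison (log2 fold changes and p-values, not used here) with a mean signal per gene, the mean normalized count. From that signal and the FPKM, whole reads were recovered for 100% of values above 0, within 0.1 reads. The FPKM had thus been divided by a size factor per library, so levels are relative. No column of samples went unmatched (0).

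Genes with a mean of at least 0.5 FPKM were tested as log2(FPKM + 1) with limma 3.58.1 in R 4.3.3 (lmFit, eBayes with trend), Benjamini-Hochberg adjusted over all 15504, and called at an adjusted p under 0.01, the limit of the study's methods. A fold change on log2(FPKM + 1) understates the change of low genes. Ranges, SDs and ratios are of FPKM unless stated. Single values were compared by an exact two-sided permutation test on the difference in mean FPKM, and the limma fits were tested on simulated data. The 8 genes and the gene lists were chosen with earlier results of these data known. Named were all 8 genes, from each list up to 4 called genes with the largest change and up to 2 uncalled genes with the highest mean, FLI1 and NR0B1 as a check, and the 5 genes most like CD44. SOX10, PTPRC, CD34, CBL and FGFBP2 were named after their values were seen. A gene that this rule names is not reported here. Alternatives were a pseudocount of 0.1, other filters and scalings, no trend, a replicate block, sample quality weights, limma-voom on the recovered reads, and leaving out each library. Intervals cover the spread between libraries.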

Additional observations from a re-analysis of the deposited data

How the results depend on the processing

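With the adjusted p limit of 0.01 alone, NT5E kept its call in all 15 alternatives, CD44 in 13 and MCAM in 12. The number of the 8 genes called higher was 2 (NT5E and CD44) with a log2 fold change past 2.5 required as well, and 1 to 4 with single libraries left out. The number called lower was 1 with quantile normalization, a replicate block, sample quality weights, limma-voom or an adjusted p limit of 0.05. With 1 library left out, log2 changes ran from 2.90 to 3.90 for CD44, 3.14 to 3.84 for NT5E, 1.42 to 1.98 for ALCAM, 1.28 to 1.59 for MCAM, 0.65 to 0.93 for ENG, -0.20 to 0.0643 for THY1 and -1.29 to -0.83 for NGFR. ALCAM lost its call with no filter on low values (1.62, adjusted p = 0.0154), where more genes are tested, and ENG gained one with sample weights (0.83, adjusted p = 0.00274). THY1 turned positive with quantile normalization (0.10) and sample weights (0.0165). NGFR gained a call with quantile normalization (-1.16), a replicate block (-1.10), sample weights (-1.01) and limma-voom (-1.34).

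Whether equal replicate numbers pair the samples could not be settled. Deviations of equally numbered libraries correlated at 0.271, 0.0889 and 0.124 over genes, against -0.289 to 0.189 for unequal numbers. With the replicate block 1 of the 8 genes was called lower, NGFR (-1.10, adjusted p = 0.00693), and 786 of all genes.

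Over all genes, 700 were called higher and 522 lower. The counts were 456 and 297 with no filter, 2488 and 2257 with sample weights, 1530 and 1537 at an adjusted p limit of 0.05, and 126 and 32 with the log2 limit of 2.5. Those called lower were 813 with median-ratio scaling, 1000 with quantile normalization and 784 with limma-voom. With libraries left out they ran from 287 to 1452 higher and 156 to 726 lower. The share of calls that were higher was 57.3%, and 37.7% to 67.4% with libraries left out. In the lists, uncalled genes turned sign when libraries were left out: MSN (-0.15 to 0.30), TGFB1 (-0.0855 to 0.38) and TWIST1 (-0.61 to 0.18). Of 614 combinations of a named list gene and an alternative, 41 lost a call and 31 gained one. The cause of these changes was not tested. Each condition has 3 libraries, and PROM1 had 10 to 28 reads in each.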
